A study of Oryza sativa with 12 samples.

Results

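Small heat shock proteins of rice that lie outside the cytosolic class I were followed through 12 seedling libraries. The set held 10 of the 42004 loci of the deposited table, taken by locus ID: the cytosolic class II gene HSP18.0 (LOC_Os01g08860), the class III gene HSP18.6 (LOC_Os02g54140), the class VI gene HSP22.3 (LOC_Os05g42120), the plastid gene HSP26.7 (LOC_Os03g14180), the mitochondrial genes HSP24.1 (LOC_Os02g52150) and HSP26.2 (LOC_Os06g11610), the genes HSP23.2 (LOC_Os04g36750) and HSP21.9 (LOC_Os11g13980) of the endoplasmic reticulum (ER), the peroxisomal gene HSP16.0 (LOC_Os06g14240), and HSP16.6 (LOC_Os01g04340), to which no class is assigned here. The table itself gives locus IDs only. All 10 names are listed in the RefSeq gene table of the assembly ASM3414082v1 as synonyms of a gene on the chromosome that the locus ID states.

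Small heat shock proteins carry a conserved alpha-crystallin domain, assemble into oligomers and bind unfolding proteins without using ATP, so that these can be refolded later by HSP70 and by the ClpB disaggregases. Plants differ from animals in having separate small heat shock proteins for the cytosol, plastid, mitochondrion, ER and peroxisome, each made in the cytosol and, for the organellar forms, carrying a targeting signal. Their genes are classical targets of heat stress transcription factors, and in unstressed vegetative tissue most are weakly expressed.

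The libraries fell into 4 groups of 3, named dm_45C, WT_45C, dm_29C and WT_29C. The dm groups were a line labelled as a knockout of GRP3 and GRP162, which encode glycine-rich RNA-binding proteins, and the WT groups were the cultivar ZH11, each sampled after heat at 45 °C or without heat at 29 °C. All groups were raised hydroponically at 29 °C under a 13 h photoperiod, and the heated ones were moved to 45 °C when 8 days old. The length of the heat differs between labels, being 18 h in the characteristics but 42 h in the protocol. The last number in the genotype label changes with the replicate. The labels do not say how many plants made up a library, whether replicates were separate cultures or whether the line traces to 1 edited plant, so p-values measure the spread between these libraries, which may be technical.

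Values are FPKM, fragments per kilobase of transcript scaled to the fragments of the library, which allows levels of different genes to be compared per length; the depth behind them is unknown. FPKM summed to between 558435 and 599861 per library. Among the heated libraries 2 stood apart, dm_45C replicate 1 and WT_45C replicate 3, with the lowest sums of the 12 (558435 and 559663) and 24.2% and 23.7% of the sum in their 10 most abundant loci, against 13.2% to 15.7% in the other heated libraries. The columns of the mutant line carry a code that is not in the labels and were assigned by elimination. GRP162 had 12466, 746 and 699 FPKM in dm_45C against 2368, 1605 and 3720 in WT_45C, and 3288, 218 and 265 in dm_29C against 1121, 1002 and 1033 in WT_29C. Replicate 1 of both mutant groups thus went against the label, and the other mutant libraries lay below the wild type of their temperature. GRP3 had 17604, 10888 and 14023 FPKM in dm_45C against 16274, 14427 and 16321 in WT_45C, and 4340, 1086 and 1355 in dm_29C against 5066, 3879 and 5489 in WT_29C. Its groups overlapped at both temperatures, through replicate 1 of the mutant groups alone. As for GRP162, the other mutant libraries lay below every wild type library of their temperature. The names dm_45C and dm_29C therefore stand for libraries labelled double mutant. The tissue is labelled whole plant. Rubisco small subunit transcripts (198 to 4208 FPKM) were present in every library, while the other leaf genes listed, a pair of light-harvesting LHCB1 loci, were low, at 0.05 to 6.91 and 1.16 to 20.9 FPKM. With heat the Rubisco loci fell in the mutant line and 2 of 3 in the wild type, whereas the lower LHCB1 locus rose in both lines. Of the root silicon transporters, Lsi1 reached 24.4 to 52.6 FPKM at 29 °C and 1.36 to 6.45 at 45 °C, while Lsi2 was at 0.03 or below throughout. In bulk seedlings, fewer cells of a type and less RNA per cell cannot be told apart.

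Heat raised 9 of the 10 genes in the mutant line and 8 of 10 in the wild type, and lowered HSP22.3 in the wild type. Over all 20305 loci tested, 31.7% passed in dm_45C against dm_29C (15.3% higher, 16.4% lower) and 29.1% in WT_45C against WT_29C (13.3% higher, 15.8% lower) (limma on log2(FPKM + 1), Benjamini-Hochberg adjusted p under 0.05). All 10 genes passed the filter on low values (at least 3 libraries with 1 FPKM or more), but 4 of them (HSP26.7, HSP23.2, HSP21.9 and HSP16.6) did so only through heated libraries, so that a rise was built into their being tested. Of the other 6, 5 rose in both genotypes. Every heated library lay above every unheated one of its genotype for 9 genes in each line, where 23.7% of all loci tested did so in the mutant line and 19.2% in the wild type. Summed over the 10 genes, FPKM came to 1340.4, 1024 and 2325 in dm_45C and 84.8, 127 and 126 in dm_29C. The sums were 1425, 1561 and 834 in WT_45C and 59.3, 73.1 and 97.7 in WT_29C. In the heated libraries this was 0.172% to 0.3999% of all FPKM in dm_45C and 0.149% to 0.260% in WT_45C.

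**Figure D1:**
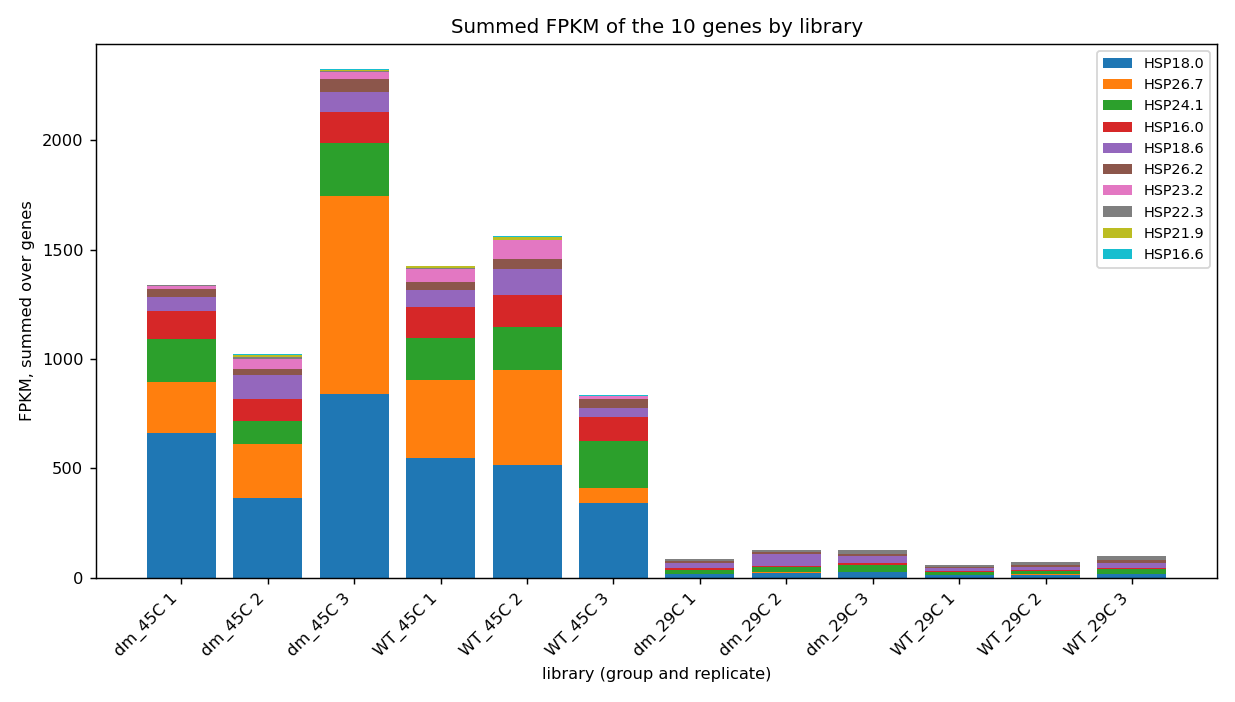
Stacked bars give the FPKM of the 10 genes in each of the 12 libraries, by group and replicate, with 1 colour per gene. HSP18.0 and HSP26.7 make up the tallest segments in most heated libraries, and the unheated sums stay at 127 FPKM or below.

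HSP18.0, the class II cytosolic form, had 661, 365 and 841 FPKM in dm_45C and 16.7, 23.4 and 26.3 in dm_29C. In the wild type it had 548, 515 and 341 FPKM in WT_45C and 10.8, 13.7 and 15.0 in WT_29C. The heated libraries lay far above the unheated ones in both lines, and it was the most abundant of the set in 5 of 6 heated libraries. The difference in log2(FPKM + 1) was 4.69 ± 0.296 (SE) in the mutant line (limma adjusted p = 2.44e-06) and 5.03 ± 0.296 in the wild type (adjusted p = 1.04e-06).

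HSP18.6, assigned to class III, was already expressed without heat. Its FPKM were 60.1, 107 and 92.6 in dm_45C against 25.1, 54.6 and 33.5 in dm_29C, and 78.1, 121 and 37.3 in WT_45C against 11.3, 15.0 and 24.3 in WT_29C. The groups did not overlap, although the highest dm_29C library came close to the lowest dm_45C library. The gene rose by 1.21 ± 0.415 on the log2 scale in the mutant line (adjusted p = 0.0414) and by 2.07 ± 0.415 in the wild type (adjusted p = 0.00296). The call in the mutant line was lost without dm_45C replicate 2 (adjusted p = 0.107) or 3 (0.106), dm_29C replicate 1 (0.145) or 3 (0.101), WT_45C replicate 1 (0.0546) or WT_29C replicate 2 (0.0552), without both mutant replicate 1 libraries (0.106) and without the filter (0.0748), against 0.0126 to 0.145 over 24 alternatives.

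HSP22.3, the class VI member, was the one gene of the set that was lower after heat. It had 2.20, 12.8 and 3.31 FPKM in dm_45C against 10.4, 11.4 and 15.6 in dm_29C, and 3.63, 3.13 and 1.36 in WT_45C against 12.2, 17.0 and 18.0 in WT_29C. All wild type heated libraries lay below all unheated ones, as did 23.4% of loci tested, whereas dm_45C replicate 2 lay within the dm_29C range. It fell by 2.21 ± 0.447 on the log2 scale in the wild type (adjusted p = 0.00307). In the mutant line the difference was -1.21 ± 0.447 and did not pass (adjusted p = 0.0562); it passed under 4 of 24 alternatives, among them without dm_45C replicate 2 (0.00101) and, narrowly, with median-of-ratios (0.0499) or quantile scaling (0.0499), against a range of 0.00101 to 0.229 over all of them.

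HSP26.7, the form imported into plastids, showed the widest difference of the set on the log2(FPKM + 1) scale. In the wild type this rank depends on the added 1. With 0.1 added, HSP23.2 came to 8.06 there, where HSP26.7 reached at most 8.02 over 24 alternatives. In the mutant line HSP26.7 stayed the wider with 0.1 added, at 8.56 against 7.03. It had 233, 248 and 905 FPKM in dm_45C against 0.80, 0.72 and 1.23 in dm_29C, and 356, 437 and 70.3 in WT_45C against 0.42, 1.14 and 0.87 in WT_29C. The groups were far apart, but heated libraries of 1 group differed several-fold among themselves. The log2 difference was 7.62 ± 0.613 in the mutant line (adjusted p = 9.34e-06) and 6.97 ± 0.613 in the wild type (adjusted p = 1.57e-05). The plastid disaggregase ClpB-p (LOC_Os03g31300), which acts on aggregates in the same organelle, rose less, by 1.34 ± 0.240 in the mutant line (adjusted p = 0.00131) and 1.20 ± 0.240 in the wild type (adjusted p = 0.00289).

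The mitochondrial pair was expressed at both temperatures. HSP24.1 had 199, 103 and 244 FPKM in dm_45C against 16.91, 24.0 and 32.2 in dm_29C, and 195, 196 and 212 in WT_45C against 15.8, 14.7 and 26.04 in WT_29C. Its wild type heated libraries were nearly alike, with a mean of 200.9 ± 9.96 (SD, n = 3). It rose by 2.81 ± 0.316 on the log2 scale in the mutant line (adjusted p = 6.7e-05) and 3.39 ± 0.316 in the wild type (adjusted p = 2.31e-05). HSP26.2 had 37.9, 27.8 and 56.6 FPKM in dm_45C against 5.42, 9.06 and 9.85 in dm_29C, and 37.3, 46.0 and 42.4 in WT_45C against 4.59, 6.14 and 10.6 in WT_29C. It was the less abundant of the pair in every library and rose by 2.17 ± 0.306 (adjusted p = 0.000285) in the mutant line and 2.47 ± 0.306 (adjusted p = 0.000142) in the wild type. The mitochondrial disaggregase ClpB-m (LOC_Os02g08490) rose by 1.47 ± 0.293 in the wild type (adjusted p = 0.00282), and its log2 difference of 0.69 ± 0.293 in the mutant line did not pass (adjusted p = 0.0921).

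Both ER genes were at or near 0 without heat. HSP23.2 had 14.9, 44.3 and 35.8 FPKM in dm_45C against 0.06, 0 and 0.57 in dm_29C, and 57.6, 84.3 and 13.5 in WT_45C against 0, 0 and 0.25 in WT_29C. It rose by 4.65 ± 0.548 on the log2(FPKM + 1) scale in the mutant line (adjusted p = 8.83e-05) and 5.28 ± 0.548 in the wild type (adjusted p = 4.65e-05). HSP21.9 was listed at 0 in all 6 unheated libraries and had 0.65, 5.77 and 3.81 FPKM in dm_45C and 8.19, 14.0 and 1.86 in WT_45C. The ER pair thus differed in level, HSP23.2 being higher than HSP21.9 in every heated library. HSP21.9 rose on the log2(FPKM + 1) scale by 1.92 ± 0.559 in the mutant line (adjusted p = 0.0205) and 2.88 ± 0.559 in the wild type (adjusted p = 0.0025). The call in the mutant line was lost without dm_45C replicate 2 (0.0698) or 3 (0.0700) and without dm_29C replicate 1 (0.0506), 2 (0.0528) or 3 (0.0507), against 0.000226 to 0.0700 over 24 alternatives. These differences depend on the added 1: with 0.1 added instead they came to 7.03 and 8.06 for HSP23.2 and to 4.69 and 5.94 for HSP21.9, the mutant line given first.

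HSP16.0, the peroxisomal form, had 129, 102 and 140.1 FPKM in dm_45C against 9.48, 3.94 and 6.76 in dm_29C, and 141, 144 and 114 in WT_45C against 4.28, 5.39 and 2.5 in WT_29C. It had the narrowest spread of the set after heat, with a coefficient of variation of 13.2% over the 6 heated libraries. It rose by 4.07 ± 0.278 in the mutant line (adjusted p = 3.61e-06) and 4.76 ± 0.278 in the wild type (adjusted p = 1.04e-06).

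HSP16.6, the member with no class or compartment assigned here, was the least expressed of the set in WT_45C. It had 2.57, 6.85 and 2.77 FPKM in dm_45C and 0, 0.17 and 0 in dm_29C. In the wild type it had 0.68, 0.64 and 0.28 FPKM in WT_45C and 0, 0 and 0.12 in WT_29C. Every dm_45C library lay above every other library, and the wild type heated libraries lay above the unheated ones but below 1 FPKM. It rose by 2.17 ± 0.294 in the mutant line (adjusted p = 0.000222), while the wild type difference of 0.55 ± 0.294 did not pass (adjusted p = 0.179). With 0.1 added in place of 1, the differences were 4.76 in the mutant line and 2.21 in the wild type, and the second then passed (adjusted p = 0.0353). It reached 1 FPKM in the 3 dm_45C libraries alone, so that it was tested only through the group where it is high, and without any 1 of those libraries it fell below the filter.

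**Figure D2:**
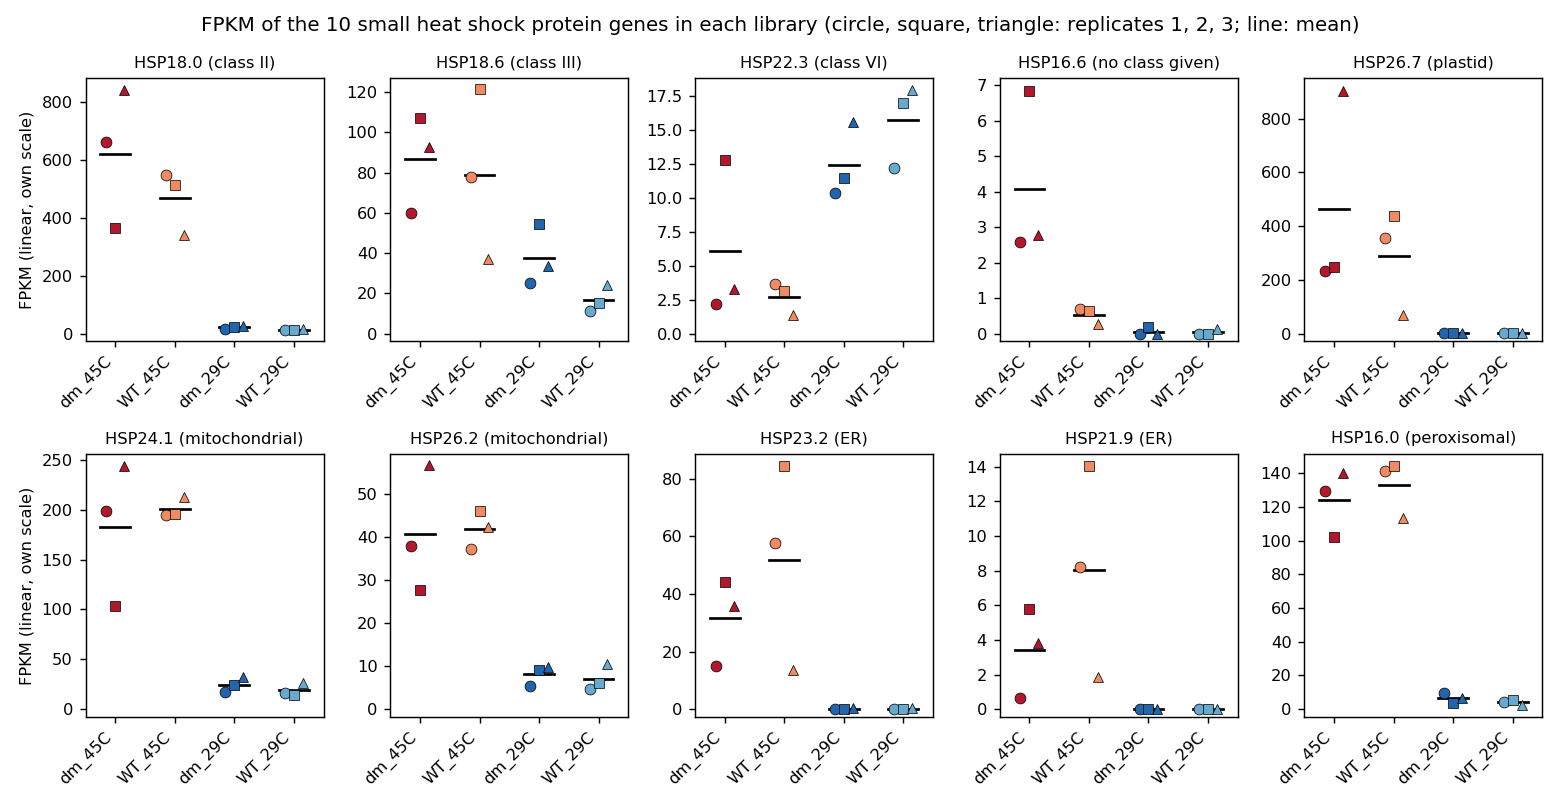
Each panel gives the FPKM of 1 gene, on its own linear scale, in dm_45C, WT_45C, dm_29C and WT_29C, with 1 symbol per replicate and a line at the group mean. The heated group means lie above the unheated ones in every panel except HSP22.3, and in the HSP16.6 panel dm_45C (2.57 to 6.85 FPKM) stands above WT_45C (0.28 to 0.68 FPKM).

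**Figure D3:**
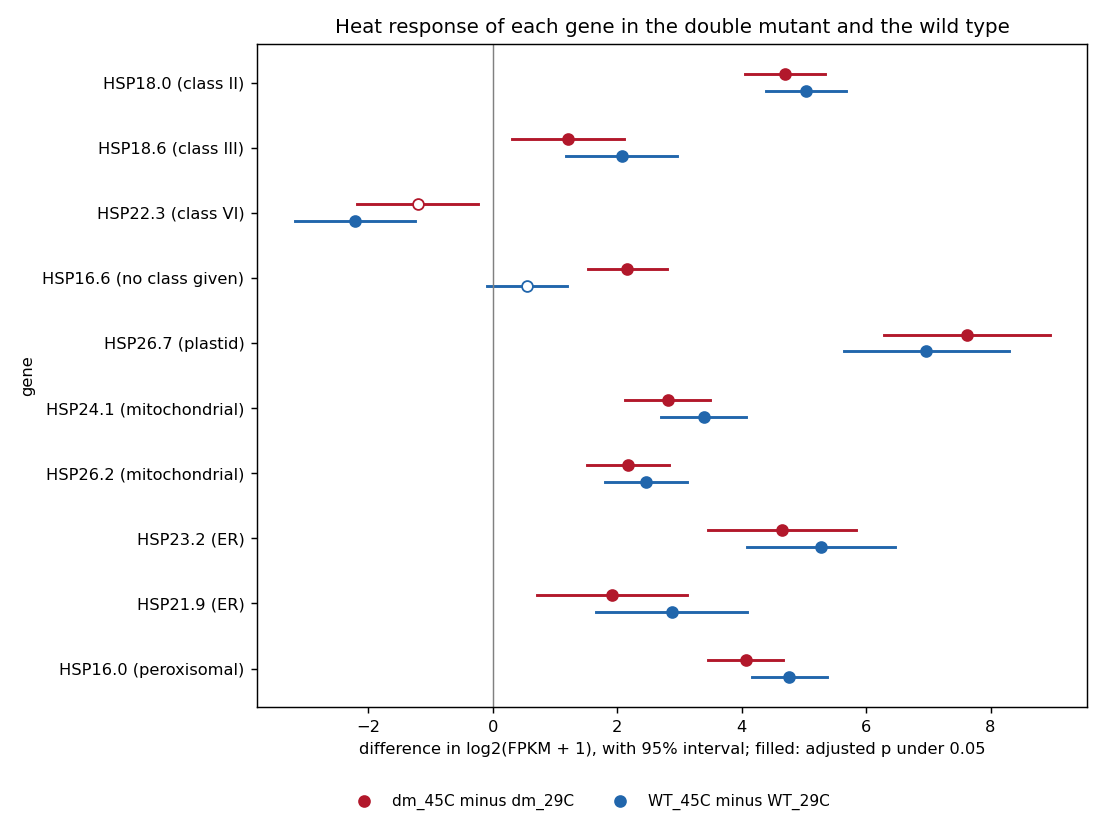
Points give the heat difference in log2(FPKM + 1) of each gene with its 95% interval, for dm_45C minus dm_29C and WT_45C minus WT_29C; filled points have an adjusted p under 0.05. HSP26.7 lies furthest right at 7.62 and 6.97, HSP22.3 lies left of 0, and the intervals of both lines overlap for all genes except HSP16.6.

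Between genotypes none of the 10 genes passed at either temperature. At 45 °C the count by limma was 0 of 10 with 1 gene at an unadjusted p under 0.05, where 4 loci or 0.0197% of all tested passed (0.0148% higher, 0.00492% lower) and 7.97% had an unadjusted p under 0.05. The 1 gene was HSP16.6, which entered the test only through its dm_45C libraries, so that a higher value there was built in. Its difference was 1.63 ± 0.294 on the log2(FPKM + 1) scale (95% interval 0.999 to 2.27, unadjusted p = 0.000102, adjusted p = 0.159). All 3 of its dm_45C libraries lay above all 3 WT_45C libraries, as 9.31% of loci tested did; for 3.96% all lay below. Same-numbered heated libraries deviated together, and with the replicate number as a block its adjusted p was 0.178, or 0.515 with the heated libraries alone, a fit added after the data were seen; over 19 alternatives it ran between 0.0922 and 0.515. The other 9 genes overlapped between dm_45C and WT_45C. Their log2 differences ran between -0.96 for HSP21.9 (95% interval -2.17 to 0.25) and 0.75 for HSP26.7 (-0.58 to 2.08). Narrower intervals than for those 2 genes were found for the mitochondrial and peroxisomal genes, at -0.91 to 0.46 for HSP24.1, -0.76 to 0.57 for HSP26.2 and -0.71 to 0.50 for HSP16.0.

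At 29 °C the count was again 0 of 10, with 2 genes at an unadjusted p under 0.05, where 49 loci or 0.241% of all tested passed (0.197% higher, 0.0443% lower) and 9.78% had an unadjusted p under 0.05. Those 2 were the cytosolic genes HSP18.6, at 25.1 to 54.6 FPKM in dm_29C and 11.3 to 24.3 in WT_29C, and HSP18.0, at 16.7 to 26.3 in dm_29C and 10.8 to 15.0 in WT_29C. Neither gene's groups overlapped, as held for 8.66% of loci tested in that direction. The log2 differences were 1.11 ± 0.415 for HSP18.6 (adjusted p = 0.424) and 0.70 ± 0.296 for HSP18.0 (adjusted p = 0.479). HSP16.0 came next, with a difference of 0.59 (95% interval -0.01 to 1.19), and the remaining genes had overlapping groups and differences between -0.31 and 0.35.

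The heat response itself differed between the lines at none of the 10 genes, 0 by limma at an adjusted p under 0.05 and 1 at an unadjusted p under 0.05, where 3 loci or 0.0148% of all tested passed and 5.12% had an unadjusted p under 0.05. That gene was again HSP16.6, with the same limit of entering through dm_45C alone, at 1.61 ± 0.415 (unadjusted p = 0.00198, adjusted p = 0.681). For HSP22.3 it was 1.008 (95% interval -0.36 to 2.38), so the passing fall in the wild type and the fall short of the threshold in the mutant line were not shown to differ. The remaining intervals all included 0, the widest being that of HSP26.7 at -1.23 to 2.53 and among the narrowest that of HSP16.0 at -1.55 to 0.16. The comparisons share groups, so their values are not independent of each other.

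**Figure D4:**
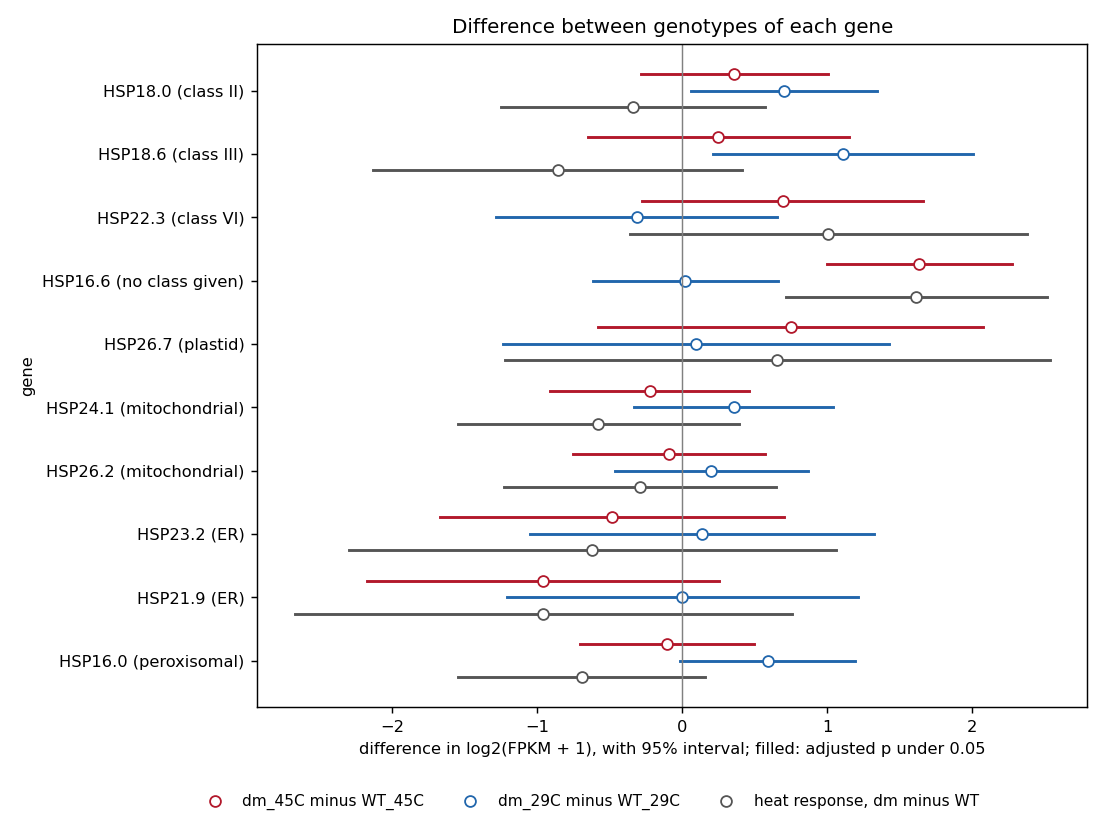
Points give the difference in log2(FPKM + 1) of each gene with its 95% interval, for dm_45C minus WT_45C, dm_29C minus WT_29C and the difference between both heat responses; open points did not pass at an adjusted p under 0.05. All points are open, and HSP16.6 lies at 1.63 at 45 °C against 0.02 at 29 °C.

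The order of levels changed with temperature. Without heat, HSP18.6, HSP24.1, HSP18.0 and HSP22.3 led in both lines, with mean FPKM of 37.7 ± 15.2, 24.4 ± 7.64, 22.1 ± 4.93 and 12.5 ± 2.77 in dm_29C and 16.89 ± 6.71, 18.8 ± 6.26, 13.1 ± 2.16 and 15.7 ± 3.12 in WT_29C (SD, n = 3). After heat the order was HSP18.0, HSP26.7, HSP24.1, HSP16.0 and HSP18.6 in both lines. Their means were 622 ± 240, 462 ± 384, 182 ± 72.0, 124 ± 19.4 and 86.7 ± 24.11 FPKM in dm_45C and 468 ± 111, 288 ± 193, 201 ± 9.96, 133 ± 16.87 and 78.9 ± 42.0 in WT_45C. Most neighbours in these orders had overlapping ranges, 7 of 9 in dm_45C, 6 of 9 in WT_45C, 5 of 9 in dm_29C and 6 of 9 in WT_29C. In WT_45C the ranges of HSP24.1 and HSP16.0 were apart, and in dm_45C those of HSP18.6 and HSP26.2. HSP22.3 was among the 4 most abundant genes without heat and among the 3 least abundant after it.

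The heated libraries spread more at the plastid gene HSP26.7 and the ER gene HSP23.2 than at the mitochondrial and peroxisomal genes. Over the 6 heated libraries the highest value was 12.9 times the lowest for HSP26.7 and 6.23 times for HSP23.2. It was 2.36 times for HSP24.1, 2.04 times for HSP26.2 and 1.41 times for HSP16.0. The cytosolic genes lay between, at 2.47 for HSP18.0 and 3.26 for HSP18.6. The other ER gene HSP21.9 (21.6), HSP22.3 (9.43) and HSP16.6 (24.5) varied widely at low levels. No test was run on these spreads.

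The lowest heated values fell in several libraries, among them those with the lowest FPKM sums. Of the dm_45C libraries, replicate 1 was the lowest for 6 of 10 genes, as for 47.6% of all loci tested. Of the WT_45C libraries, replicate 3 was the lowest for 8 of 10 genes, as for 59.1% of all loci. Over all 6 heated libraries, WT_45C replicate 3 was the lowest for 6 genes, dm_45C replicate 1 for HSP21.9 alone, and dm_45C replicate 2 for HSP24.1, HSP26.2 and HSP16.0. Of all 20305 loci tested, WT_45C replicate 3 was the lowest for 7117 and dm_45C replicate 1 for 5261. Loci tied for the lowest value were counted for dm_45C replicate 1 wherever it was among the tied. They were never counted for WT_45C replicate 3, so these counts do not treat ties alike. At HSP26.7, dm_45C replicate 1 stood at 0.404 and WT_45C replicate 3 at 0.177 times the mean of the other 2 libraries of its group. The ratios were 0.373 and 0.191 at HSP23.2, in the same order of libraries, but 1.15 and 1.09 at HSP24.1 and 0.898 and 1.02 at HSP26.2. The part of the libraries' composition in these values was not tested. Without both libraries, an alternative added after the data were seen, 8 of the 9 genes then tested rose in the mutant line, as did 14.5% of all loci. In the wild type 8 rose and HSP22.3 fell, where 13.5% of all loci rose and 11.7% fell. Without replicate 1 of both mutant groups, where GRP162 was high, 7 of 9 rose in the mutant line, HSP18.6 no longer passing, where 10.7% of all loci rose. Between genotypes 0 of 9 then passed at either temperature, where 0.0451% of all loci passed at 45 °C and 0.166% at 29 °C.

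**Figure D5:**
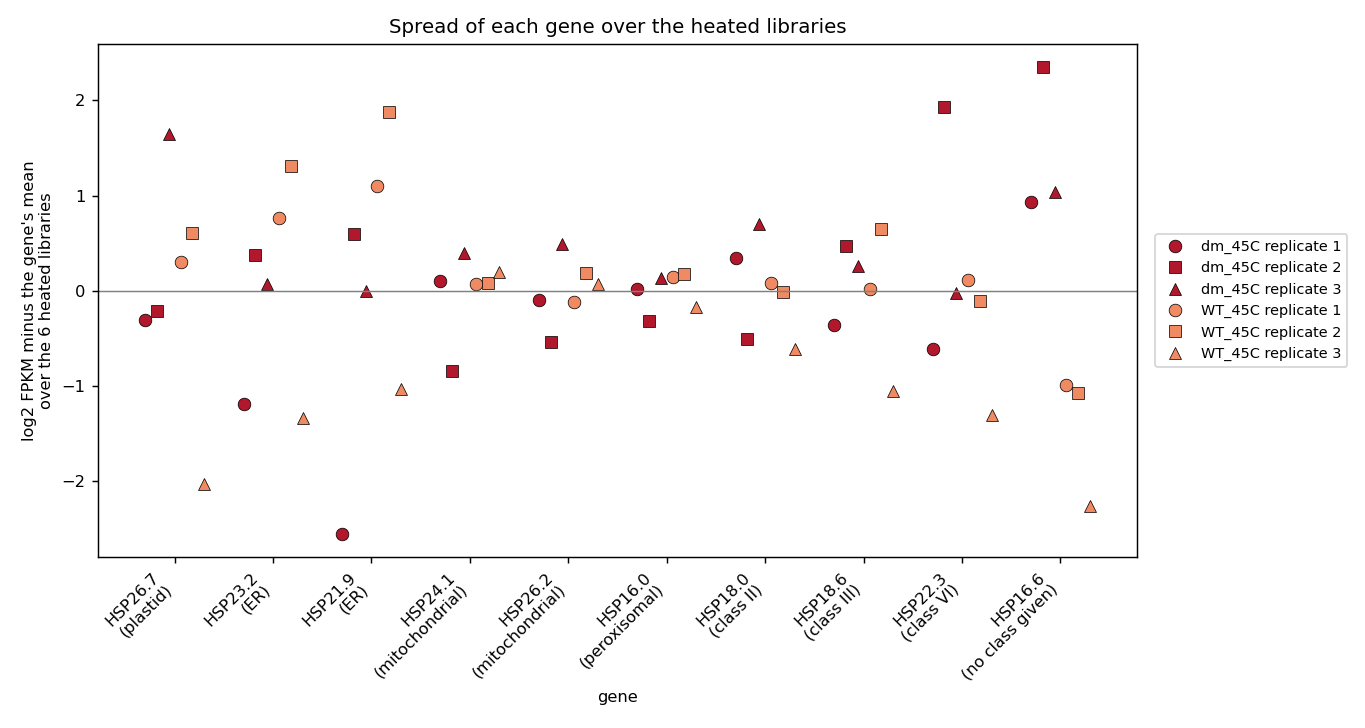
Points give, for each gene, the log2 FPKM of the 6 heated libraries minus the gene's mean over them, with colours for groups and symbols for replicates. The points of HSP16.0 lie close to 0, and those of HSP26.7, HSP23.2, HSP21.9, HSP22.3 and HSP16.6 spread widely. WT_45C replicate 3 is the lowest point for 6 of 10 genes, as for 7117 of 20305 loci tested, where ties with another library are left out.

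The cytosolic class I genes, the largest class of the family, rose at 7 of 8 loci in each line, and the eighth, HSP17.9B, fell in the mutant line. Of all loci tested, 15.3% rose and 16.4% fell in the mutant line, and 13.3% rose in the wild type. The median log2 difference of class I was 4.38 in the mutant line and 4.85 in the wild type, against -0.01 and -0.04 over all loci. Their 3 most abundant members, HSP17.9A, HSP17.4 and HSP16.9A, averaged 496 ± 97.2, 473 ± 217 and 382 ± 225 FPKM in dm_45C and 529 ± 275, 382 ± 138 and 433 ± 305 in WT_45C (SD, n = 3), which places the means of the mitochondrial and peroxisomal genes below all 3. Over the heated libraries the highest class I value was between 2.18 and 6.64 times the lowest. WT_45C replicate 3 was the lowest heated wild type library for all 8, as for 59.1% of all loci tested.

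The ClpB disaggregases act on the proteins that small heat shock proteins hold, and the heat stress factors bind the promoters of heat shock genes. Of 3 ClpB genes 2 rose in the mutant line and 3 in the wild type, among them the cytosolic HSP101 (LOC_Os05g44340), by 3.32 ± 0.350 on the log2 scale in the mutant line (adjusted p = 4.33e-05) and 3.99 ± 0.350 in the wild type (adjusted p = 1.55e-05). Of 25 listed heat stress factors 21 were tested, and 7 rose and 3 fell in the mutant line, while 6 rose and 4 fell in the wild type. Over all loci tested, 15.3% rose and 16.4% fell in the mutant line, and 13.3% rose and 15.8% fell in the wild type. The highest means over all 12 libraries were those of HsfB2c (LOC_Os09g35790), HsfA2e (LOC_Os03g58160) and HsfA2c (LOC_Os10g28340). HsfB2c, of the class B factors that lack the activation motif of class A, rose by 1.81 ± 0.216 in the mutant line (adjusted p = 9.73e-05) and 2.25 ± 0.216 in the wild type (adjusted p = 2.69e-05). HsfA2c, a class A factor, rose by 1.29 ± 0.255 (adjusted p = 0.00239) and 1.38 ± 0.255 (adjusted p = 0.00184), whereas HsfA2e did not pass, at -0.51 (adjusted p = 0.0551) in the mutant line and -0.50 (adjusted p = 0.066) in the wild type. The order of levels differed between groups, and 2 factors named after their values were seen ranked high in some of them. HsfC1b averaged 51.5 ± 8.52 FPKM in dm_45C and 32.6 ± 8.45 in WT_45C, above HsfA2e in both, and rose in both lines. HsfA1 averaged 40.2 ± 9.69 FPKM in dm_29C and 37.0 ± 5.70 in WT_29C, second to HsfA2e in both, and fell with heat in both lines. The median log2 difference of the factors was -0.06 in the mutant line and 0.19 in the wild type, and that of the ClpB genes 1.34 and 1.47. Between genotypes 0 of these ClpB genes and factors passed by limma at either temperature. An unadjusted p under 0.05 was found for 3 of 21 factors at 45 °C and 0 at 29 °C, where 7.97% and 9.78% of all loci had one.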

How the data were processed

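Poly(A) RNA of 12 rice seedling libraries, 3 in each of 4 groups, was sequenced with unique molecular identifiers and a strand mark, per the labels' protocols. Each library has a column of deposited FPKM values, so named in the file headers. Tools listed in the submitters' processing notes, without roles, are StringTie 1.3.4d, HISAT2 2.0.4, cutadapt 1.9, edgeR, DESeq2 and UMI-tools. Among the sources used here none names a genome build.

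The 20305 of 42004 loci that reached 1 FPKM in 3 libraries or more were tested on log2(FPKM + 1) in 1 limma fit (3.58.1, R 4.3.3) of 4 group means over all 12 libraries with an intensity trend. Adjusted p-values are Benjamini-Hochberg values over all loci within a comparison, with 0.05 as the threshold. The same steps were tested on simulated data. Values were tabulated with Python 3.11.15, pandas 2.3.3 and numpy 2.4.6, and plotted with matplotlib 3.10.9. FPKM hold no depth, so no counting intervals are given, and reads shared between related genes cannot be apportioned.

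The alternatives were other pseudocounts, filters, scalings, samples and empirical Bayes settings, a replicate block, and each library left out. The members and lists were chosen with earlier results of these data known. All members were named, and of the class I, ClpB and heat stress factor lists the 3 most abundant loci. Outside this rule, HsfC1b, HsfA1 and HSP17.9B were named after their values were seen. HSP16.9C and HSP16.9B, which follow HSP16.6 in the gene order, were also named outside it. A likeness ranking over libraries was not run, since these fall into 2 temperature clusters. Replicate numbers are shared between groups by the titles alone; over tested loci the deviations of same-numbered libraries correlated at 0.106, 0.293 and 0.141 between genotypes at 45 °C, over the 0.1 taken as pairing, and below it for at least 1 number in the other comparisons. The block changed no call of a member between genotypes at 45 °C.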

Additional observations from a re-analysis of the deposited data

How the results depend on the processing

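Over 24 alternatives, between 6 and 10 of the 10 genes passed with heat in the mutant line (9 as reported; 6 to 9 when 1 library was left out, 6 without dm_45C replicate 3) and 9 or 10 in the wild type; in the comparisons of genotypes and of heat responses the count stayed at 0 in all alternatives run. Calls of HSP18.0, HSP26.7, HSP24.1, HSP26.2, HSP23.2 and HSP16.0 with heat kept direction and threshold in all 24. The replicate block, which pairs libraries by number alone outside the comparison at 45 °C, gave 10 calls in the mutant line, HSP22.3 then passing as lower (adjusted p = 0.0488), and changed no other call. Signs turned only for differences that did not pass; the cause was not tested. With quantile scaling the difference at 29 °C was -0.0487 for HSP16.6 and -0.0581 for HSP26.7. With single libraries left out, differences at 45 °C ran from -0.21 to 0.63 for HSP18.6, -0.0762 to 1.23 for HSP26.7, -0.48 to 0.14 for HSP24.1, -0.35 to 0.15 for HSP26.2, -1.24 to 0.0317 for HSP23.2 and -0.21 to 0.0244 for HSP16.0. At 29 °C they ran from -0.0545 to 0.0755 for HSP16.6, -0.0712 to 0.22 for HSP26.7, -0.0351 to 0.49 for HSP26.2 and -0.0653 to 0.26 for HSP23.2. The differences between heat responses ran from -0.60 to 0.00224 for HSP18.0 and -0.17 to 1.14 for HSP26.7. Over all loci, calls between genotypes ran from 1 (with the replicate block, or without WT_45C replicate 1 or WT_29C replicate 1) to 44 (without dm_45C replicate 3) at 45 °C, where 4 were reported, and were 10 without dm_45C replicate 2. They ran from 9 (without dm_29C replicate 2) to 64 at 29 °C (49 reported), between heat responses from 0 to 11 (without dm_45C replicate 2; 3 reported), and with heat in the mutant line from 3822, without both mutant replicate 1 libraries, to 7483 (6430). The fit with only the groups compared is the same as the one reported for the difference between heat responses, and HSP16.6 had no value with the filter at FPKM 5 or without a dm_45C library. Without counts, depth sets an unknown limit for the genes near 0 FPKM.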

Other observations

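HSP16.6 is followed in the RefSeq gene order of the assembly ASM3414082v1 by the class I genes HSP17.9B, HSP16.9C, HSP16.9A and HSP16.9B. HSP17.9B (LOC_Os01g04350), picked after its values were seen, did not move with the other class I genes. It had 71.0, 129 and 59.4 FPKM in dm_45C against 139, 149 and 137 in dm_29C, and 71.3, 101 and 71.1 in WT_45C against 55.0, 63.4 and 78.3 in WT_29C. It fell by 0.78 ± 0.260 on the log2 scale in the mutant line (limma adjusted p = 0.0368), and its difference of 0.30 in the wild type did not pass (adjusted p = 0.42). Without heat every dm_29C library lay above every WT_29C library at HSP17.9B, as held for 8.66% of loci tested. The log2 difference of 1.11 ± 0.260 did not pass (adjusted p = 0.164), and the difference between both heat responses was -1.08 ± 0.368 (adjusted p = 0.911). HSP16.9C, the next gene, had 24.5, 45.9 and 38.6 FPKM in dm_45C against 0.33, 0.29 and 1.26 in dm_29C, and 60.2, 67.4 and 16.3 in WT_45C against 0.68, 0 and 0.67 in WT_29C, and rose in both lines (adjusted p = 3.59e-05 in the mutant line and 2.49e-05 in the wild type).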
